A study of Drosophila melanogaster with 3 samples.

Results

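The 10 genes described here encode the core of the Toll and Dorsal pathway of Drosophila melanogaster, and the measurement is where a tagged partner of Dorsal was recovered on the DNA around them. The genes were taken from a fixed list (dl, cact, Tl, tub, pll, Myd88, spz, pip, ea and Dif), out of 13945 protein-coding genes on the large chromosome arms and chromosome 4. All 10 symbols matched 1 annotated gene each. The samples were 3 biological replicates of 1 group, namely embryos of mixed sex aged 0 to 24 h from a transgenic line in which Dip3 (gene Dlip3) carries GFP at its C-terminus, precipitated with an antibody to GFP. Every replicate carried the same fusion, no other genotype or treatment was among the samples, and the control experiment was not analysed here. The labels do not say which promoter drives the fusion. The embryos were whole and covered all of embryogenesis, so a region may come from any tissue or stage. Peak lists hold no expression values, so the labelled material could not be checked against marker genes.

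Toll signalling sets up the dorsoventral axis of the early embryo and later drives the response to fungi and Gram-positive bacteria. A sulfotransferase made in the ovary (Pipe, from pip) marks the ventral side of the egg, a chain of serine proteases ending in Easter (ea) then cleaves the ligand Spätzle (spz), and cleaved Spätzle activates the receptor Toll (Tl). Inside the cell the adaptors Myd88 and Tube (tub) and the kinase Pelle (pll) lead to destruction of Cactus (cact), an IκB protein, which frees the Rel family factors Dorsal (dl) and Dif to enter the nucleus. Dip3 is a protein with MADF and BESS domains that is known to bind Dorsal.

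The regions counted were those of the authors' set that passed an irreproducible discovery rate (IDR) threshold. This rate is worked out from how alike regions rank in repeated experiments. The set held 3741 regions, the strongest of a list of 23524 called on the alignments of all 3 replicates together (the pooled list). A region belonged to a gene when its summit lay in the gene body or within 5 kb of it. Signal is the authors' own strength value per region on an unstated scale, and it is compared only within a list. In the IDR set it ran from 85.1 to 2760 with a median of 141. Each replicate also had its own relaxed list of 30000 regions, in which rank 1 is the highest signal. A replicate's top list means its 3741 highest regions, as many as the IDR set holds. Membership of the IDR set does not by itself show that the replicates agree at a region. Of its regions 292 were absent from the list of replicate 1. Replicate 3 stood apart from the others in that 8812 of its regions had a q value of 0.01 or less, against 2480 in replicate 1 and 3226 in replicate 2. Sequencing depth was unknown, since the lists hold no read counts.

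Dip3 regions lay at 8 of the 10 genes. The genes cact and Dif had 3 IDR regions each, Myd88 and pip had 2 each, and dl, tub, pll and ea had 1 each, which gives 14 regions in all. Neither Tl nor spz had any. Of all protein-coding genes 47.0% had such a summit, and 7.01% had 3 or more. Long genes reach more summits, so all genes were split into 4 equal groups by window length. Of the 10 genes 7 fell in the longest group, where 59.1% of genes had a summit, and tub, pll and ea in a shorter one with 45.5%. Averaged over the length groups of the 10 genes the share was 55.0%. The mean number of summits per gene, summed over the same groups, came to 10.2, beside the 14 found. With 1 group of samples and a chosen list of genes no test was made of these counts.

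**Figure D1:**
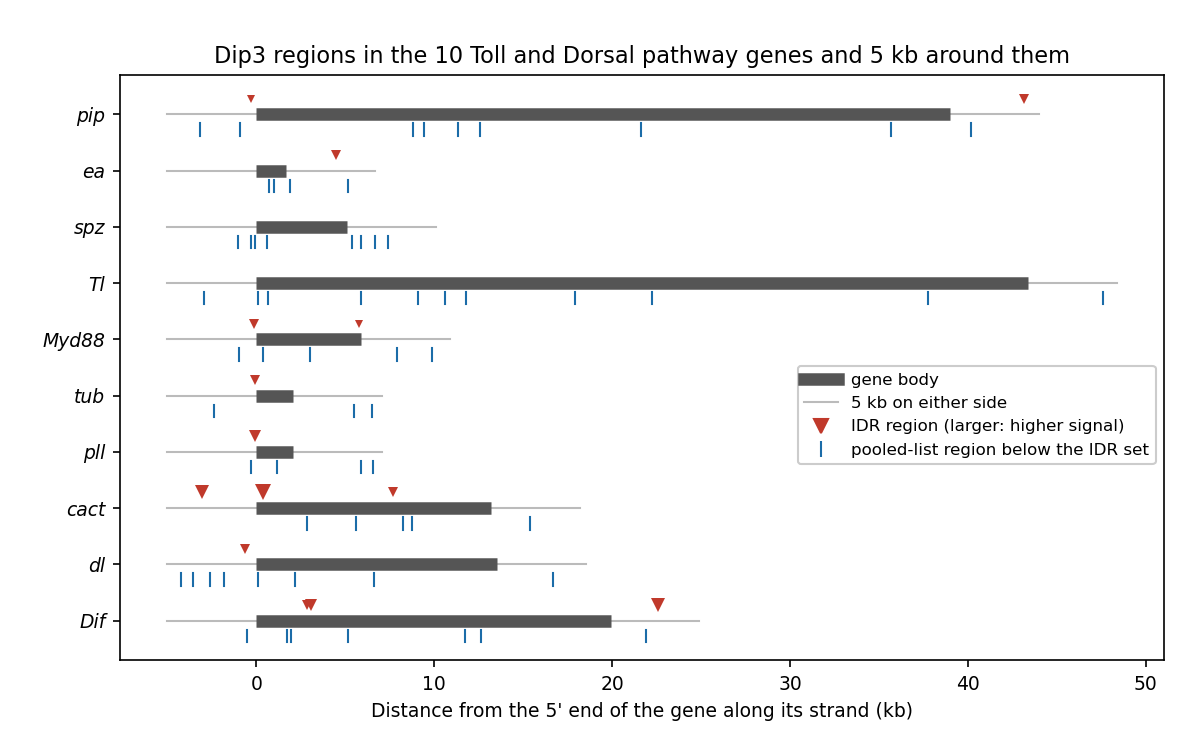
Position of Dip3 regions along each of the 10 genes, as distance from the 5' end of the gene along its strand in kb. Thick bars are gene bodies, thin lines the 5 kb on either side, red triangles the 14 IDR regions (larger for higher signal) and blue ticks regions of the pooled list below the IDR set. The triangles sit near the 5' end at cact, tub, pll, Myd88, pip and dl, and past the 3' end at ea, pip and Dif. Others lie deeper in the gene body at cact, Myd88 and Dif, and another lies 3030 bp before cact. There are none at Tl and spz.

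A narrower reading, which asks for a summit within 500 bp of one of the gene's own annotated starts, was met by 5 of the 10 genes, namely cact, pll, Myd88, tub and pip. Among all protein-coding genes 20.3% met it. Summits upstream of a start are given with a minus sign. The 5 summits lay at −194 bp at cact, −83 bp at pll, −117 bp at Myd88, −50 bp at tub and −281 bp at pip. At cact the start in question is internal, and the same summit was 388 bp downstream of the most upstream start. Counting only regions in the top list of every replicate, the start was bound at cact and pll alone among the 10 genes, against 12.6% of all genes. The same restriction left cact, pll, dl and Dif (4 of the 10) with a region in the gene or within 5 kb, against 32.7% of all genes. That share is not matched by window length.

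**Figure D2:**
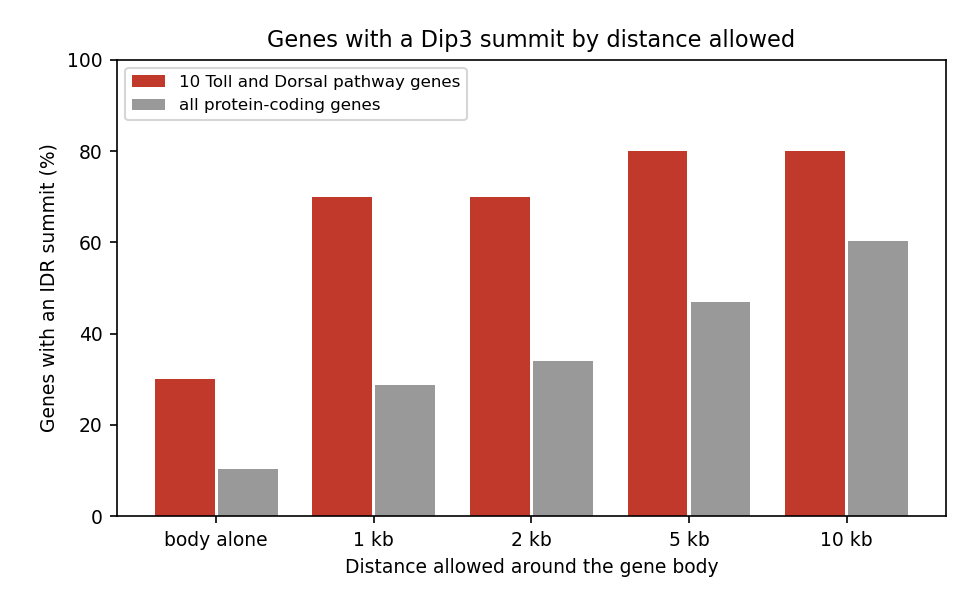
Share of genes with an IDR summit (vertical axis, %) as the distance allowed around the gene body grows from 0 to 10 kb (horizontal axis), for the 10 pathway genes (red) and all protein-coding genes (grey). Of the 10 genes 3 had a summit inside the body, 7 within 1 kb and 8 within 5 kb, beside 10.4%, 28.7% and 47.0% of all genes. The grey shares are not matched by gene length, and 7 of the 10 genes fell in the longest length group. Longer genes reach more summits, so the gap between the bars is not read as a trait of the pathway genes.

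The DNA at 4 of these start-proximal summits is printed because the count of bound starts rests on them. Each window is the summit base with 50 bases on either side, on build dm6, written 5′ to 3′ on the strand of the named gene. Capitals mark a match to a searched motif.
cact (chr2L:16325769-16325869, minus strand): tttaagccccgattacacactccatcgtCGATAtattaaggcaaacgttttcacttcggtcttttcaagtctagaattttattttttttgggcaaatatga
tub (chr3R:4387642-4387742, plus strand): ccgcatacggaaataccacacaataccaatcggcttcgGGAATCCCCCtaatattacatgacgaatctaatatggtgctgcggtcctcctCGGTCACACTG
pll (chr3R:27253215-27253315, minus strand): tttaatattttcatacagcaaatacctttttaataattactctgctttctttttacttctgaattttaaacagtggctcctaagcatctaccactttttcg
pip (chr3L:19337840-19337940, minus strand): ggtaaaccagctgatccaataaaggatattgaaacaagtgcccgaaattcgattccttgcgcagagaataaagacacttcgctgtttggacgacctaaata

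In the cact window the capitals are CGATA, the core recognised by the insulator protein BEAF-32. In the tub window the first run of capitals is a match to the Rel site, the sequence class bound by Dorsal and Dif, read on the opposite strand. The second run there is Ohler motif 1, a core promoter element, and its last base is the annotated start of tub. The pll and pip windows held none of the 9 motifs searched. A match is a description of the letters and was not tested for binding.

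Over the windows of all 14 regions the Rel site was found in 1 (tub), beside 0.481% of all 3741 IDR windows of the same length. Ohler motif 1 was also in the tub window alone, beside 0.722% of all windows. The BEAF-32 core CGATA was in 4 of the 14 (cact −194 bp, the 3' end of Myd88, and the windows at fal and Fkbp39 described below), beside 20.4% of all windows. The word CACATGT, an E-box that Twist binds, was in the window at dl, beside 1.23% of all. None of the 14 held TATCGATA (the site of DREF, in 2.89% of all windows), CAGGTAG (the site of Zelda, 0.615%), GAGAG (the GAGA element, 9.97%), Ohler motif 6 (0.428%) or Ohler motif 7 (4.04%). Both strands were searched, and no window here was counted for CGATA through the longer TATCGATA. In windows with 100 bases on either side the Rel site was again at tub alone, and CGATA was in 7 of the 14 beside 33.3% of all. In these longer windows GAGAG was at fal (1 of the 14, beside 21.5% of all) and Ohler motif 7 at Fkbp39 (1, beside 8.21%). CACATGT was then at cact −194 bp as well as at dl (2, beside 2.3%). The 14 shorter windows had a median GC content of 41.1% (range 20.8 to 51.5%), beside a median of 35.6% over the IDR set. In the longer windows the medians were 37.6% and 36.3%.

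**Figure D3:**
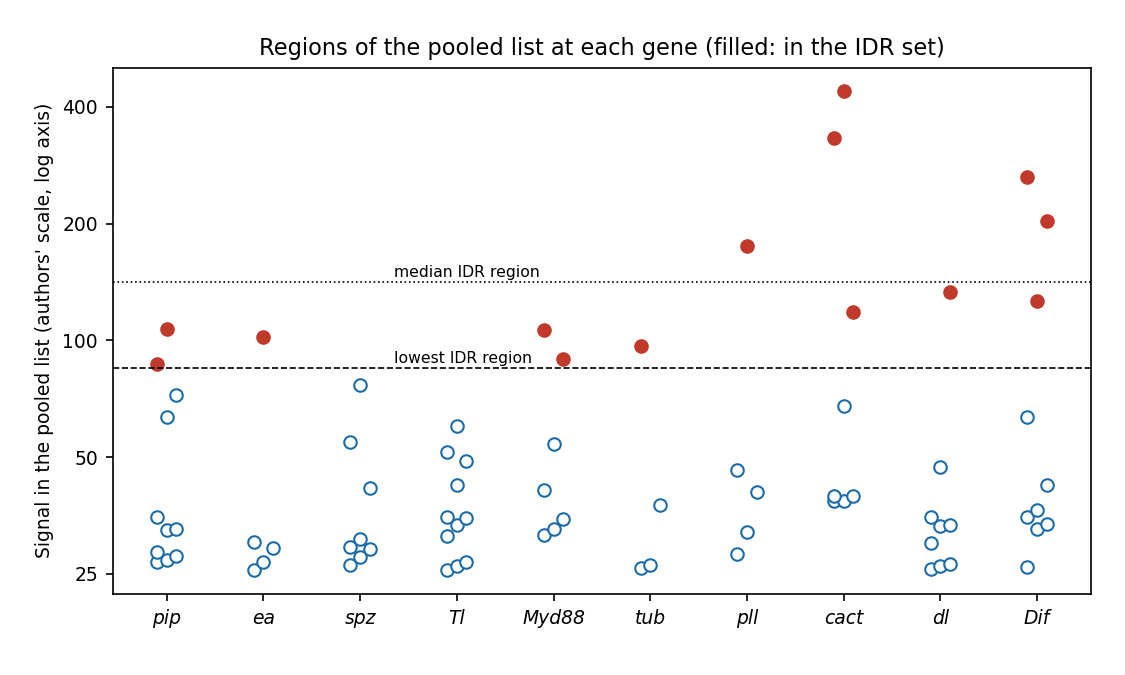
Signal of every region of the pooled list at each gene, on a log axis in the authors' own unit, with genes ordered by role from pip to Dif. Filled points are in the IDR set and open points below it, and the lines mark the lowest (85.1) and median (141) signal of the IDR set. The points above the median belong to cact, Dif and pll, and all points of spz and Tl lie below the IDR set.

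Of the genes that act before the receptor, pip and ea had regions with signals below the median of the IDR set, and spz had none. At pip (FBgn0003089, 3L, 19298623 to 19337609, minus strand) an IDR region from 19337695 to 19338084 sat at −281 bp from the single annotated start, with a signal of 86.8 and rank 3635 of 3741. It is the weakest of the 14 and lies just inside the set, whose lowest signal was 85.1. Replicate 3 listed it at rank 1463 (signal 62.9 in its own list), replicate 2 at rank 6940 (signal 16.5) and replicate 1 did not list it. Only replicate 3 therefore held it in its top list.

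The other region of pip showed the opposite pattern across replicates. It lay 4156 bp past the 3' end of pip (3L, 19294272 to 19294661, signal 107), at −97 bp from a start of the neighbouring gene fal. Replicate 1 ranked it 3046 and replicate 2 ranked it 1317, and replicate 3 did not list it. Over the whole IDR set 25 regions (0.668%) were absent from the list of replicate 3, and 292 (7.81%) from that of replicate 1. The region at the start of pip and that at fal thus each rest on part of the replicates.

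At ea (FBgn0000533, 3R, 15328729 to 15330408, plus strand) the only IDR region was 2781 bp past the 3' end of the gene (15332994 to 15333383, signal 102, rank 2954). It lay between a divergent pair of starts, at −56 bp from Fkbp39, a gene for an FK506-binding protein, and −77 bp from Cyfip, whose product is part of the actin-regulating WAVE complex. The replicates ranked it 3402, 4321 and 6078, so replicate 1 alone had it in its top list. Its q values in replicates 1, 2 and 3 were 0.0822, 0.0568 and 0.0014, lowest in replicate 3. Neither the body of ea nor its start carried an IDR region. The strongest pooled-list entries of ea other than this one had signals of 30.2 or less.

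The ligand gene spz and the receptor gene Tl were the 2 genes without an IDR region. At spz (FBgn0003495, 3R, 27064990 to 27070070, minus strand) the highest entry of the pooled list was at −1041 bp from its start, with a signal of 76.7 and rank 4258, against 85.1 at the lower end of the IDR set. Replicates 1, 2 and 3 ranked it 3339, 6646 and 6020. A weaker entry at −65 bp from the start had a signal of 54.8, and replicate 2 did not list it. The nearest IDR summit was 42371 bp from the gene body, at the start of CG5815.

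At Tl (FBgn0262473, 3R, 26799041 to 26842403, plus strand), the longest of the 10 genes at 43363 bp, the pooled list held 11 entries and none reached the IDR set. The highest lay in an intron 659 bp downstream of the start, with a signal of 60.2 and rank 5818. Replicate 1 ranked it 2714 and replicate 2 ranked it 5061, and replicate 3 listed no region there. An entry over the 5' UTR, at +84 bp from the start, had the reverse order, with rank 4093 in replicate 3, rank 20685 in replicate 2 and none in replicate 1. The nearest IDR summit was 24295 bp past the gene, at −73 bp from the start of ball, a histone kinase gene.

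The adaptor genes Myd88 and tub had weak regions just upstream of their starts. At Myd88 (FBgn0033402, 2R, 9302823 to 9308722, minus strand) the region at −117 bp (9308644 to 9309033) had a signal of 106 and rank 2785. Its ranks were 1853, 4602 and 4681 in replicates 1, 2 and 3, so it was in the top list of replicate 1 alone. Its q values there were 0.00297, 0.0786 and 0.000534, lowest in replicate 3. A further region (9302758 to 9303147) had its summit in the 3' UTR of Myd88, 5435 bp downstream of the nearest start, with a signal of 89.8. Replicates 1 and 2 ranked it 3161 and 3039, inside their top lists, while replicate 3 ranked it 7844, outside its own. Its q values in replicates 1, 2 and 3 were 0.0514, 0.0051 and 0.00542, highest in replicate 1.

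At tub (FBgn0003882, 3R, 4387742 to 4389813, plus strand) the region (4387497 to 4387886, signal 96.9, rank 3136) was the one with the Rel site and Ohler motif 1 shown above. Replicate 3 ranked it 2560 with a q value of 0.000135. Replicate 2 ranked it 6284 with a q value of 0.209. Replicate 1 listed 0 regions in the gene and the 5 kb on either side of it, as it did for 9.62% of all protein-coding genes. The tub region and the region at the start of pip shared this order, high in replicate 3, lower in replicate 2 and absent in replicate 1.

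The kinase gene pll (FBgn0010441, 3R, 27251131 to 27253182, minus strand) had a region of intermediate strength (27253070 to 27253459, signal 176, rank 1327) with its summit 83 bp upstream of the start. It shares this site with TfIIA-L, which encodes the large subunit of the general transcription factor TFIIA. The summit was at −165 bp from a TfIIA-L start on the other strand and inside an intron of its longer form. Ranks were 2696, 865 and 1358 in replicates 1, 2 and 3, all within the top lists. Which of the neighbours a region serves cannot be read from these lists.

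The gene of the Dorsal inhibitor, cact, carried the strongest region of all 10 genes. The gene lies on 2L (FBgn0000250, 16313036 to 16326207, minus strand) and has 4 annotated starts, and the region from 16325633 to 16325911 sat among them with its summit at 16325819. Its signal of 438 placed it at rank 221 of 3741. In the replicates' own lists its signal was 182, 110 and 152, at ranks 178, 332 and 210. All replicates thus placed it near the top of their lists.

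The other regions of cact were an upstream site of a neighbour and an internal site. The upstream region (16329151 to 16329324, signal 333, rank 407) lay 3030 bp before cact and −105 bp from the start of mRpL4, a mitochondrial ribosomal protein gene, at ranks 536, 336 and 561. The internal region (16318305 to 16318694, signal 118, rank 2391) had its summit in an intron, 6920 bp downstream of the nearest start of cact. Replicate 2 ranked it highest, at 1451, followed by replicate 1 at 2950 and replicate 3 at 4621. Its q values in replicates 1, 2 and 3 were 0.0314, 0.000279 and 0.000325. The internal region was therefore outside the top list of replicate 3, and the other cact regions were in the top list of every replicate.

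The Rel factor genes dl and Dif lie next to each other on 2L, 3668 bp apart and on the same strand. Neither had an IDR region within 500 bp of a start of its own, and in both the regions nearest to a start lay beside a long non-coding RNA gene. At dl (FBgn0260632, 17436830 to 17450364, minus strand) the only region (17450836 to 17451225, signal 133, rank 2028) was 667 bp upstream of the most upstream start. Its summit fell in an exon of lncRNA:CR46204, 537 bp downstream of the start of that gene, which runs away from dl on the plus strand. The replicates ranked it 1933, 2904 and 2157, all in the top lists. None of the 3 annotated dl starts had an IDR summit within 500 bp. The pooled list held an entry in the 5' UTR at +99 bp from the upstream start (signal 47.2, rank 8105), which replicates 1 and 2 did not list.

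At Dif (FBgn0011274, 17413248 to 17433161, minus strand) a pair of regions lay in an intron between its annotated starts. The first (17429922 to 17430311, signal 203, rank 1025) had its summit at −1918 bp from the downstream Dif start and 411 bp inside lncRNA:CR44409, a short gene on the opposite strand. Replicates 1, 2 and 3 ranked it 1903, 964 and 666. The second (17430128 to 17430517, signal 126, rank 2183) overlapped the first by 184 bp, with summits 206 bp apart. The region closest to this second summit had rank 17810 in replicate 1, rank 5554 in replicate 2 and rank 1594 in replicate 3. Separate regions for both summits were thus in the top list of replicate 3 alone, and the second region counts as present in every top list only through its overlap with the region of the first.

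The remaining Dif region was the third strongest of the 14 (17410501 to 17410659, signal 264, rank 668). It lay 2689 bp past the 3' end of Dif, at the divergent starts of CG15141 (−82 bp) and Polr2J (−153 bp), a gene for a subunit of RNA polymerase II. Its ranks were 590, 486 and 1425 in replicates 1, 2 and 3, all in the top lists.

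Across the 14 regions 7 overlapped the top list of every replicate and 11 were in every relaxed list, beside 58.7% and 91.0% of all IDR regions. The 7 were at dl, pll, cact (2 regions) and Dif (3 regions). The 3 that a replicate did not list were those at tub, at the start of pip and at fal. The top lists of replicates 1, 2 and 3 held 12, 10 and 9 of the 14, beside 81.5%, 85.2% and 77.6% of all IDR regions. The pooled signal of 5 of the 14 was above the median of the IDR set and that of 9 was below it, with a median of 122 over the 14. The 5 were 2 regions of cact, 2 of Dif and that of pll. The 9 were the regions of dl, tub, Myd88, pip and ea and the remaining region of cact and of Dif. Asking only that both other replicates held a region in their top lists left 4 genes and 7 regions without replicate 1, beside 36.6% of all protein-coding genes and 67.2% of IDR regions. Without replicate 2 it left 4 genes and 7 regions, beside 34.6% and 63.7%. Without replicate 3 it left 6 genes and 10 regions, beside 37.6% and 73.1%.

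By nearest start of any annotated gene, 7 of the 14 regions belonged to the pathway gene itself, 4 to a neighbouring protein-coding gene and 3 to a long non-coding RNA gene. Over all assignments of summits to protein-coding genes within 5 kb, 29.5% were nearest to the gene's own start. Of all IDR summits 7.97% were nearest to a non-coding RNA gene. A total of 10 of the 14 summits were within 500 bp of a start of any gene (60.3% over the IDR set), and 9 of these lay upstream of it. At 3 sites, those of pll with TfIIA-L, Fkbp39 with Cyfip and CG15141 with Polr2J, protein-coding starts on both strands were within 500 bp. No share over the IDR set is given for upstream or divergent placement, so neither is read as a trait of these genes.

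A list of 39 other genes of the pathway was read in the same way. Of these, 14 (35.9%) had an IDR summit in the gene or within 5 kb, against the 47.0% of all protein-coding genes. A summit within 500 bp of a start was found at 5 (12.8%), against 20.3%. The 39 genes were not matched by window length. Among all genes the share within 5 kb ran from 31.7% in the shortest length group to 59.1% in the longest. By role the 14 genes with a summit within 5 kb were 2 of 6 genes of the dorsoventral protease cascade and its makers and 4 of 11 genes of immune recognition and its proteases. The rest were 1 of 5 ligand genes, 3 of 7 Toll-family receptor genes and 4 of 10 intracellular and nuclear genes. Of their 15 regions 5 had the pathway gene's own start as the nearest.

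The receptor gene Toll-7 had the strongest region that was nearest to its own start (signal 263, −282 bp), at ranks 1071, 508 and 599 in replicates 1, 2 and 3. Tehao, another Toll-family receptor gene, had one at −283 bp with a signal of 91.2, and 18w, also of this family, one with a signal of 92.2 that lay 10416 bp from its start. PGRP-SA, which encodes a peptidoglycan receptor of the immune branch, had a region at −1041 bp with a signal of 108. At PGRP-SA the ranks were 25425, 1276 and 2980, so replicate 1 held it only far down its list.

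At most of the remaining genes the nearest start was that of a neighbour. The region within 5 kb of Pli, the gene of the Pelle-binding ubiquitin ligase Pellino, had a signal of 316 and lay at −79 bp from TfIIA-S, the gene for the small TFIIA subunit. That of cactin, whose product binds Cactus, had 285 and lay at the start of mal. Dlip3, the gene of the tagged protein, had 2 regions. The stronger (251) lay at −139 bp from stau, which encodes an RNA-binding protein of mRNA localisation, and ranked 733, 851 and 724 in replicates 1, 2 and 3. The other (163) lay inside Dlip3, 278 bp downstream of its start, where replicate 3 ranked a region 495 and replicates 1 and 2 listed none. The region of Traf6 had 228 and was nearest to GIIIspla2, though also within 500 bp of a Traf6 start. The regions of spz4 (164, at Cog8), Spn27A (163, at CG34310, and within 500 bp of its own start), ndl (116, at Rexo5), grass (102, nearest to Men-b) and GNBP3 (95.9, at CG43783) were likewise nearest to another gene. No IDR summit was within 5 kb of gd or snk, which encode proteases that act before Easter, or of Rel, the Rel factor of the Imd pathway. The gene ndl, listed in the same cascade group as gd and snk, had the region given above.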

How the data were processed

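Chromatin had been sonicated to 200 to 800 bp, per the labels. The deposited lists hold a score per region (called signal here), a −log10 q value and a summit offset, all as the authors made them. Per the notes deposited with the files, the relaxed lists were called on each replicate and on the pooled alignments, and the IDR set was derived from them. The aligner, the peak caller and the cut-off of the IDR set: not given in the sources used here. The dm3 lists were not used.

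Positions are on dm6, counted from 1, with Ensembl release 115 genes (BDGP6.54) and the Release 6 sequence. RefSeq gave the same ends for the 10 genes. Any gene includes transposable elements. The replicate region with the nearest summit among those overlapping by 1 bp gave a rank. The assignment was tested on simulated data, with Python 3.11.15 and pandas 2.3.3. Members, lists and motifs were chosen with earlier results of these data known. All 10 genes and their regions are named. Of other pathway genes, the 12 with the highest signal are named, and Tehao, gd, snk and Rel were added after their values were seen. smt3 was read as Sumo. No test was run, so no p-value is given. Alternatives were other distances, stricter sets, other overlaps, other starts and, for each replicate, the regions in the top lists of both others.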

Additional observations from a re-analysis of the deposited data

How the results depend on the processing

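The count of pathway genes with a region (8) fell to 3 with the gene body alone, to 3 in the upper 50% of IDR regions by signal and to 4 in the regions of every top list, and the count of their regions (14) to 5, 5 and 7. Asking of the IDR set only a place in the top lists of both other replicates (called without a replicate here) gave 4 to 6 genes and 7 to 10 regions. The IDR set itself was still that made from all 3 replicates. The count with a bound start (5) was 2 in the upper 50% by signal and again 2 without any 1 replicate. No share of all protein-coding genes is given for the upper 50% by signal, nor for bound starts without a replicate. A smaller set lowers such counts for any genes, so these falls are not read as a trait of the pathway genes. The count of regions in every top list (7 of the 14) became 4 at a reciprocal overlap of 50%, 11 with the whole lists and 7 to 10 without a replicate. The reciprocal rule asks for 50% of both regions, so it depends on region width. The IDR regions at mRpL4 and CG15141 were 174 and 159 bp wide. No share over the IDR set is given for this rule, so the fall to 4 is not read as poor agreement of the replicates. Of the 7 regions nearest to a pathway gene's own start 3 remained in gene bodies. The 14 other pathway genes became 1 with the body alone, 5 at 1 kb, 8 at 2 kb and 22 at 10 kb (of all protein-coding genes 10.4%, 28.7%, 34.1% and 60.4%), and 7 in the upper 50% by signal, 7 in every top list and 7 to 11 without a replicate. The other alternatives stayed within 1.5 times. Sets without a replicate are smaller, so a lost region need not rest on that replicate. Depth was unknown, and a missing region may lie below a list's end. No paired analysis was possible because there was 1 group.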

Other observations

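At 5 places in or near the 10 genes a single replicate had a region in its top list that overlapped no IDR region. No share over all genes is given for such places, so the count is not read as a trait of these genes. Those of Tl and spz are given above, both from replicate 1. In cact, replicate 3 ranked a region (2L, 16317804 to 16318193) 2060, with its summit in the intron about 500 bp from the internal IDR summit, and replicates 1 and 2 listed no region over the matching pooled entry. In an intron of pip, replicate 1 ranked a region 3398, at a q value of 0.0823 (3L, 19326042 to 19326421). In an intron of Dif, replicate 2 ranked a region 3660, at a q value of 0.0231 (2L, 17420299 to 17420662). The q value of the cact region in replicate 3 was 0.000135.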
